A study of Homo sapiens with 4 samples.

Results

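Polycomb and Trithorax genes encode opposing sets of chromatin regulators, and 37 of them were followed by gene symbol in the deposited expression table of 58365 genes. Membership followed from the symbol alone, and the list was drawn up with earlier results of these data known. It held 8 subunits of Polycomb repressive complex 2, or PRC2, 16 genes of Polycomb repressive complex 1, or PRC1, 9 subunits of H3K4 methyltransferase complexes and 4 histone demethylases. All 37 symbols were found once in the table, and all 37 passed the filter of a mean of 1 FPKM over the samples, together with 14022 genes in all.

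The samples were H1 cells, an established human embryonic stem cell line, grown for 2 days in mTeSR1-based medium with activin A and BMP4, the first step of hematopoietic differentiation. One group of 2 samples received DMSO, the solvent, and the other group of 2 samples received IWP2, which blocks Porcupine, the enzyme that lipidates Wnt ligands for secretion. No allele was changed in either group, all cells came from the same line, and the IWP2 dose was not given in the sources used here. The comparison asked how chromatin regulator genes stood on day 2 when endogenous Wnt secretion was blocked. RNA of whole cultures was sequenced from TruSeq libraries, and the values were taken as FPKM, fragments scaled to transcript length and to the mapped fragments of the library. Library depth was unknown, because the table held no read counts. Nothing in the labels said that the 2 samples of a group were separate cultures, so p-values measure only the spread between these samples, which may be technical.

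PRC2 methylates lysine 27 of histone H3, a mark found at silent developmental genes of embryonic stem cells. PRC1 ubiquitinates histone H2A and, in its canonical form, reads the PRC2 mark through CBX proteins and compacts chromatin through PHC proteins. Trithorax group proteins of the KMT2 and SETD1 families methylate lysine 4 of the same histone at active and poised genes. KDM6 enzymes remove the lysine 27 mark and KDM5 enzymes remove the lysine 4 mark.

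The cultures were first checked against markers of the cell types they could hold. Wnt response genes were lower with IWP2 in 9 of 11 tested, by limma on log2(FPKM + 1) with Benjamini-Hochberg adjustment over all 14022 genes and an adjusted p under 0.05, the call used throughout. SP5, a direct Wnt target, stood at 53.2 and 47.05 FPKM in the DMSO samples and at 0.379 and 0.363 FPKM in the IWP2 samples. All 9 markers of primitive streak and mesoderm were lower with IWP2, and their summed level was 1131 and 1440 FPKM in DMSO against 150.3 and 172.5 FPKM in IWP2. APLNR, the apelin receptor, was the most abundant of them by mean over the 4 samples. In IWP2 it read only 2.97 and 2.39 FPKM, below HAND1 at 100.5 and 118.9 FPKM. Of 8 pluripotency markers, 5 were higher with IWP2, among them SOX2 at 0.1933 and 0.1736 FPKM in DMSO and 35.61 and 36.08 FPKM in IWP2, and TDGF1 was lower. The summed level of these 8 was 1371 and 1192 FPKM in DMSO against 2497 and 2503 FPKM in IWP2. POU5F1 was the largest part, at 750.7 and 571.4 FPKM in DMSO and 1854 and 1844 FPKM in IWP2. Of 5 endoderm markers, 3 of the 4 tested were lower with IWP2, and the sum was 187.8 and 124.7 FPKM in DMSO against 84.1 and 100.1 FPKM in IWP2, mostly SOX17. Amnion and trophectoderm markers summed to 8.002 and 8.439 FPKM in DMSO and to 14.2 and 17.6 FPKM in IWP2. GABRP and KRT7 were called higher, and VTCN1, CGA and HAVCR1 were under 1 FPKM in all 4 samples. ISL1 was the most abundant by mean over the 4 samples, though KRT7 had the higher mean in IWP2 (7.03 against 6.35 FPKM). Blood and endothelial markers were near the floor of the table, with 5 of 6 under 1 FPKM in every sample and GATA1 at 0, and only RUNX1, lower with IWP2, was tested. Of the 5 neuroectoderm markers none passed the filter. PAX6 was the most abundant by mean over the 4 samples. It read 1.33 and 0.646 FPKM in DMSO but 0.084 and 0.028 FPKM in IWP2, where LHX2 had a higher mean (0.293 FPKM). Of the 26 developmental genes given last, 7 also stand in these marker lists, namely EOMES, HAND1, ISL1, LHX2, PAX6, SOX1 and SOX17, and TBXT is in both the Wnt response and the mesoderm list. Called genes of the Wnt response, mesoderm, pluripotency, endoderm and amnion lists, and RUNX1, differed with the treatment beside every chromatin gene described here. Their part in the differences of the chromatin genes was not tested. In whole cultures, fewer cells of a type and less RNA per cell cannot be told apart.

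A small number of the Polycomb and Trithorax genes were called, in both directions. With IWP2, 4 of 37 rose, namely PHC1, JARID2, PHF19 and KDM2B, and 4 of 37 fell, namely KDM6B, PHC2, CBX2 and ASH2L. The 8 called members were 21.6% of the list, against 15.2% of all genes tested, with 6.75% of all genes higher and 8.44% lower. A difference between the list and all genes was not tested, so the count says nothing particular about the members. Which direction had more calls over all genes depended on the scaling: 946 were higher and 1183 lower as deposited, 1143 and 1021 with equal medians, and 1087 and 1058 with quantile normalization. The median log2 fold change was -0.06 over the members and -0.02 over all genes tested. Groups did not overlap, in the sense that both IWP2 samples lay on the same side of both DMSO samples, for 27 members, 14 higher and 13 lower. That ordering held for 59.8% of all genes tested, 27.9% higher and 31.9% lower, so for single members it carries little weight. Calls depended on having both samples of a group, over the members as over all genes. Without IWP2 replicate 1 limma called 0 members, with 9 at an unadjusted p under 0.05, and 2.1% of all genes. Without IWP2 replicate 2 it called 0 members, with 8 at an unadjusted p under 0.05, and 1.7% of all genes. Without DMSO replicate 1 it called 5 members and 9.81% of all genes, and without DMSO replicate 2 it called 3 members and 8.05%. Over these 4 fits the log2 fold change ran from 1.25 to 1.52 for PHC1 and from -1.80 to -1.59 for KDM6B, and no called member changed direction. Some members not called moved further for their size. PHC3 ran from -0.50 to 0.31, BMI1 from -0.44 to 0.09 and KMT2A from -0.23 to 0.28. With no filter on low values, limma called KDM6B alone among the members and 1.32% of 28917 genes.

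**Figure D1:**
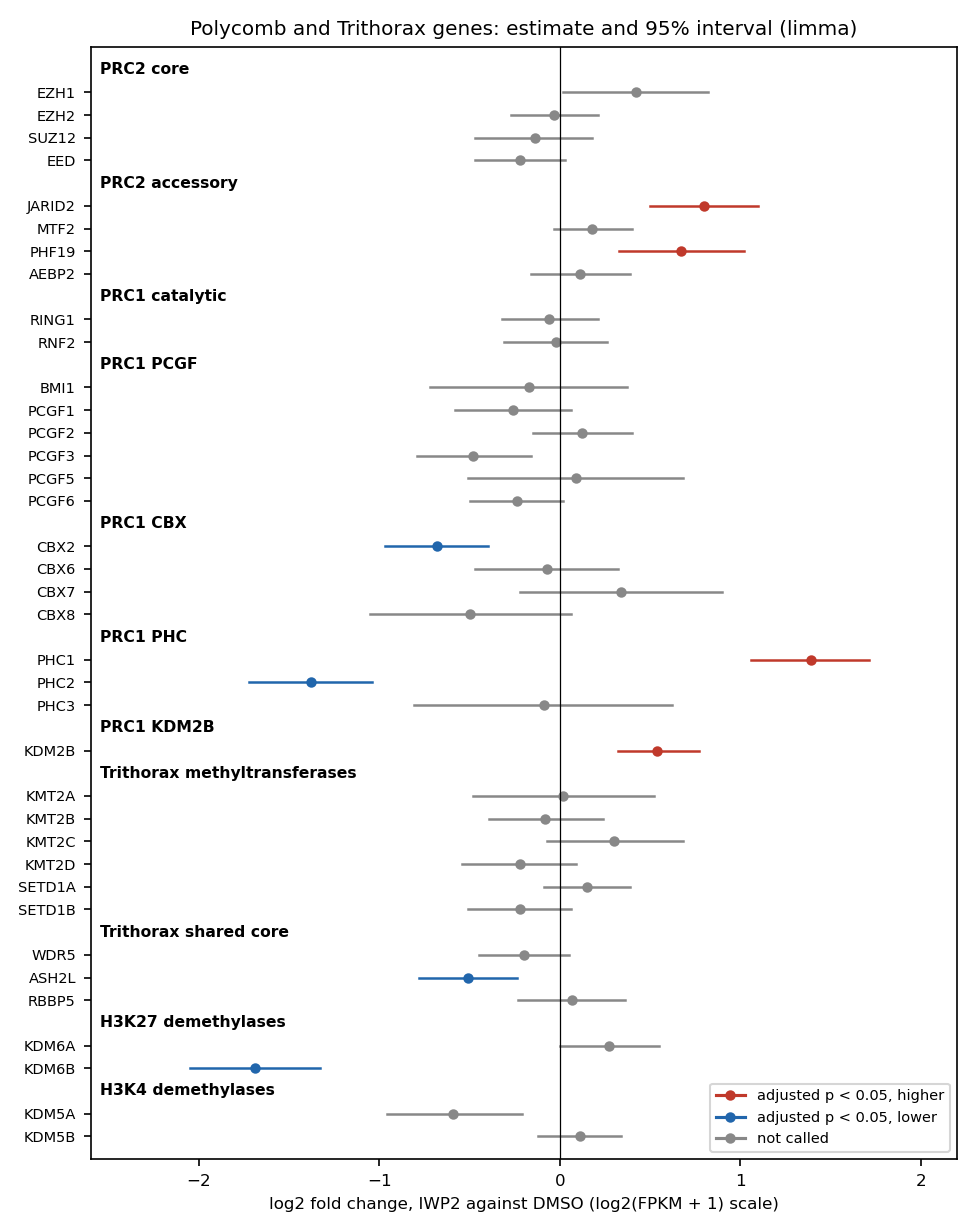
Log2 fold change of each of the 37 members, IWP2 against DMSO, on the log2(FPKM + 1) scale, with the limma estimate as a point and its 95% interval as a line, grouped by complex. The 4 red genes were called higher and the 4 blue genes lower, and the 29 grey members lay between -0.59 and 0.42.

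The members were expressed at moderate levels. Their median was 12.4 FPKM over the 4 samples, against 10.2 FPKM for all genes tested, and 22 of 37 had a mean of 10 FPKM or more. By mean over the 4 samples PHC1 and PCGF3 were the most abundant, and CBX7 and CBX8 had means under 2 FPKM. That ranking differed by group. In DMSO, WDR5 (mean 33.4 FPKM) lay above PHC1 (27.1 FPKM). In IWP2, KDM2B (40.02 FPKM) lay above PCGF3 (31.95 FPKM). The replicates of a group differed by a median of 0.16 (DMSO) and 0.11 (IWP2) on the log2 scale over the members, close to the 0.15 and 0.13 over all genes tested. PHC3 was the least repeatable member, with a log2 difference of 0.80 between the DMSO samples, and BMI1, PCGF5 and KMT2A differed by 0.54, 0.53 and 0.51 between the IWP2 samples.

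The PHC genes gave the strongest contrast within a family. PHC proteins carry the SAM domain through which canonical PRC1 polymerizes. PHC1 stood at 29.7 and 24.5 FPKM in the DMSO samples and at 77.1 and 67.7 FPKM in the IWP2 samples. The mean FPKM of PHC1 was 2.67-fold higher with IWP2, and on the log2(FPKM + 1) scale of the test the log2 fold change was 1.39 (SE 0.13, n = 2 per group, limma adjusted p = 0.00355). Here and for the other genes, a fold is the ratio of mean FPKM, while every log2 fold change is on the log2(FPKM + 1) scale and is smaller for low genes. PHC2 went the other way, from 14.01 and 16.99 FPKM in DMSO to 5.08 and 5.56 FPKM in IWP2. The mean FPKM of PHC2 was 2.92-fold lower, with a log2 fold change of -1.38 (SE 0.14, limma adjusted p = 0.00422). For both genes the distance between the groups was several times that between replicates. PHC3 read 2.92 and 5.83 FPKM in DMSO and 4.04 and 3.66 FPKM in IWP2, and the groups overlapped.

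The ratio of PHC1 to PHC2 was 2.12 and 1.44 in the DMSO samples and 15.2 and 12.2 in the IWP2 samples. As a share of the summed FPKM of the 3 PHC genes, PHC1 made up 63.7% and 51.8% in DMSO and 89.4% and 88.0% in IWP2. PHC2 made up 30.0% and 35.9% in DMSO and 5.89% and 7.22% in IWP2. The family sum was 46.6 and 47.3 FPKM in DMSO and 86.2 and 76.9 FPKM in IWP2, so the total rose along with the change in mix. A share compares genes per length within a sample and does not depend on how that sample was scaled.

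Some PHC1 reads may belong elsewhere. PHC1P1, a pseudogene copy, read 1.66 and 1.57 FPKM in DMSO and 4.64 and 3.84 FPKM in IWP2, and the ratio of PHC1 to PHC1P1 stayed between 15.6 and 17.9 in the 4 samples. At its 3′ end PHC1 also overlaps M6PR on the opposite strand, and the kit did not mark strand. M6PR was at 50.1 and 45.6 FPKM in DMSO and 59.2 and 53.9 FPKM in IWP2 (log2 fold change 0.24, limma adjusted p = 0.18), a smaller difference than that of PHC1.

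The start regions of PHC1 and PHC2 are shown because these paralogues moved in opposite directions. Each line gives the 250 bases upstream of a RefSeq start (GRCh38.p14), 5′ to 3′ on the strand of the gene, and none overlaps an exon of GENCODE release 29. Capitals mark GGGCGG or its reverse complement CCGCCC, the GC box bound by SP and KLF factors.
PHC1, chr12:8913593-8913842, plus strand: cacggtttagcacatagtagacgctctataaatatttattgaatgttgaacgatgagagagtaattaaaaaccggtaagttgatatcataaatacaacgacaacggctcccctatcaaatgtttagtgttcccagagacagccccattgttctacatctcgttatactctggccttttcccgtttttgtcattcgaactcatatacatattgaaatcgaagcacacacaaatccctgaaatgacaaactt
PHC1, chr12:8914259-8914508, plus strand: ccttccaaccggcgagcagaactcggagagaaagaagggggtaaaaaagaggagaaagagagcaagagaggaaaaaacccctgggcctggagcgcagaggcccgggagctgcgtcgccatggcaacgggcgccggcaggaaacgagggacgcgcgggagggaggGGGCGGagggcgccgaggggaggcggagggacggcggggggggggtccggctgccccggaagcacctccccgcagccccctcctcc
PHC2, chr1:33431096-33431345, minus strand: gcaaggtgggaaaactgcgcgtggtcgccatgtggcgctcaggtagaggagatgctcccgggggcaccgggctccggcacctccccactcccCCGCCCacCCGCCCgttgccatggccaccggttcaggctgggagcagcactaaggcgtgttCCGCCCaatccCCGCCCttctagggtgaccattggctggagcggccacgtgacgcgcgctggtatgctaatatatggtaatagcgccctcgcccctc
PHC2, chr1:33349900-33350149, minus strand: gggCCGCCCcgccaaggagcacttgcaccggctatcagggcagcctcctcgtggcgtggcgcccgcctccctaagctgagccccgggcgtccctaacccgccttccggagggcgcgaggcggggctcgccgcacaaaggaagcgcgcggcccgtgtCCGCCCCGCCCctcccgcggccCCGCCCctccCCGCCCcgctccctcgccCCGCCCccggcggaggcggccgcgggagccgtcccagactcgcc

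The upstream PHC1 window was AT-rich, with 37.6% G and C and 10 CpG dinucleotides, while the downstream PHC1 window had 70.4% and 23. The PHC2 windows had 66.8% and 80.4% G and C. Gene-level FPKM does not say which start was used. RefSeq windows were matched for 33 of the 37 members, 49 windows in all, with a median of 26 CpG against 11 over 35116 windows of all genes. GGGCGG on either strand was in 77.6% of the member windows and in 42.6% of all windows. CTTTGAT, a core TCF/LEF motif, was searched on both strands and lay in 0 of the 49 member windows, and in 2.26% of all windows. CCGCCC can overlap a further copy of itself by 1 base, as in the second PHC2 window, and the letters of either motif can overlap the other by 1 base, though no member window held both. A match is only a description, and no match says only that these letters are not in these windows.

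KDM6B showed the largest fall among the members. KDM6B, also called JMJD3, and KDM6A, also called UTX, are demethylases that remove the PRC2 mark. KDM6B read 7.57 and 8.90 FPKM in DMSO and 1.82 and 1.88 FPKM in IWP2, a 4.45-fold lower mean FPKM (log2 fold change on the log2(FPKM + 1) scale -1.69, SE 0.14, limma adjusted p = 0.00294). The IWP2 samples were close to each other and far below both DMSO samples. KDM6A read 20.1 and 18.3 FPKM in DMSO and 24.88 and 22.04 FPKM in IWP2, and its log2 fold change of 0.27 was not called (limma adjusted p = 0.169). KDM6B thus made up 27.3% and 32.7% of the summed KDM6A and KDM6B level in DMSO, and 6.82% and 7.87% in IWP2. The sum itself was 27.7 and 27.2 FPKM in DMSO and 26.7 and 23.9 FPKM in IWP2.

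**Figure D2:**
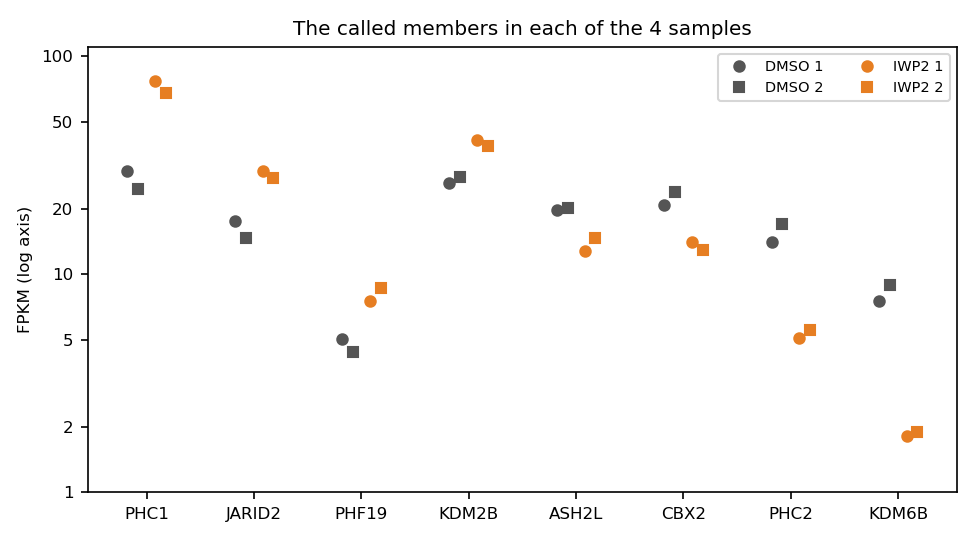
FPKM on a log axis of the 8 called members in each sample, with DMSO in grey and IWP2 in orange, circles for replicate 1 and squares for replicate 2. PHC1 lies between 67.7 and 77.1 FPKM with IWP2, and KDM6B between 1.82 and 1.88 FPKM, each apart from both DMSO samples.

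Within PRC2, 2 of the 4 accessory subunits were called higher and 0 of the 4 core subunits were called by limma. Over all genes tested 15.2% were called, 6.75% of them higher with IWP2, and a difference between accessory and core subunits was not tested. EZH2, the main methyltransferase of proliferating cells, read 25.7 and 27.5 FPKM in DMSO and 27.1 and 25.0 FPKM in IWP2. The log2 fold change of EZH2 was -0.03, with a 95% interval of -0.27 to 0.21. SUZ12 and EED, the other core subunits, had log2 fold changes of -0.14 and -0.22. EZH1, the second methyltransferase, read 7.28 and 5.50 FPKM in DMSO and 8.36 and 9.26 FPKM in IWP2 (log2 fold change 0.42, limma adjusted p = 0.152, and the only one of these 4 at an unadjusted p under 0.05). EZH1 made up 22.1% and 16.7% of the summed EZH level in DMSO and 23.56% and 27.03% in IWP2. SUZ12 has a partial pseudogene copy, SUZ12P1, which was listed at a like level, 14.12 and 18.02 FPKM in DMSO and 21.6 and 25.4 FPKM in IWP2, so the SUZ12 value is uncertain.

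JARID2 is a catalytically inactive Jumonji protein that helps bring PRC2 to its targets. JARID2 rose from 17.5 and 14.6 FPKM in DMSO to 29.6 and 27.6 FPKM in IWP2, 1.78-fold (log2 fold change 0.80, SE 0.12, limma adjusted p = 0.0129). The call was lost in 4 of 15 alternative fits, with adjusted p up to 0.134. Both IWP2 samples lay above both DMSO samples. The ratio of JARID2 to EZH2 was 0.679 and 0.533 in DMSO and 1.09 and 1.10 in IWP2. PHF19, a Polycomb-like subunit that links PRC2 to chromatin, rose from 5.02 and 4.38 FPKM to 7.54 and 8.66 FPKM, 1.72-fold (log2 fold change 0.67, SE 0.14, limma adjusted p = 0.0313). The PHF19 call was lost in 6 of 15 alternative fits, among them the replicate number as a block (adjusted p = 0.054), with adjusted p up to 0.224. MTF2, another Polycomb-like subunit, was more abundant at 26.4 and 26.6 FPKM in DMSO and 30.7 and 29.7 FPKM in IWP2, and was not called (log2 fold change 0.18, limma adjusted p = 0.228). AEBP2, which marks the JARID2-containing form of the complex, had a log2 fold change of 0.11. Both IWP2 samples were above both DMSO samples in all 4 accessory genes, an ordering that 27.9% of all genes tested also showed.

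In PRC1, 4 of 16 genes were called, against 15.2% of all genes tested, with PHC1 and KDM2B higher and PHC2 and CBX2 lower. Neither catalytic subunit was among them, and so few genes cannot be told apart from that share. The E3 ligases RING1 and RNF2 had log2 fold changes of -0.06 and -0.02, with 95% intervals of -0.32 to 0.21 and -0.31 to 0.26. RNF2, also called RING1B, read 22.4 and 25.6 FPKM in DMSO and 22.4 and 24.8 FPKM in IWP2. RNF2 made up between 55.8% and 57.2% of the summed RING1 and RNF2 level in all 4 samples. Neither gene reached an unadjusted p under 0.05 in limma.

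PCGF proteins pair with the ligases and define the PRC1 variants. Limma called 0 of the 6, against 15.2% of all genes, with 1 at an unadjusted p under 0.05. So few genes cannot be told apart from that share. PCGF3, a subunit of a non-canonical variant, was the most abundant at 49.1 and 40.8 FPKM in DMSO and 33.6 and 30.3 FPKM in IWP2. Its log2 fold change of -0.48 missed the threshold (limma adjusted p = 0.0626). It passed in 2 of 15 alternative fits, with FPKM rescaled to the same total in each sample (adjusted p = 0.0393) and with the replicate number as a block (adjusted p = 0.0386), and the adjusted p ranged up to 0.298 in the others. PCGF2, also called MEL18 and part of canonical PRC1, read 22.19 and 22.05 FPKM in DMSO and 22.5 and 26.1 FPKM in IWP2, with a log2 fold change of 0.12. PCGF3 overlaps the antisense gene AC139887.2 at its 3′ end, listed at 6.63 and 3.66 FPKM in DMSO and 3.48 and 3.26 FPKM in IWP2 (log2 fold change -0.45, limma adjusted p = 0.309), and without strand their reads cannot be told apart there. PCGF3 made up 49.6% and 45.3% of the summed PCGF level in DMSO and 42.2% and 37.9% in IWP2, and PCGF2 22.4% and 24.5% against 28.1% and 32.6%. BMI1, PCGF1, PCGF5 and PCGF6 had log2 fold changes between -0.26 and 0.09. BMI1 shares exons with the readthrough gene COMMD3-BMI1, listed at 0.898 to 2.29 FPKM, so its own level is uncertain.

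CBX proteins bind the PRC2 mark in canonical PRC1. CBX2, which also compacts nucleosomes, fell from 20.9 and 23.7 FPKM in DMSO to 14.1 and 12.9 FPKM in IWP2, 1.65-fold (log2 fold change -0.68, SE 0.11, limma adjusted p = 0.0176). It was lost in 4 of 15 alternative fits, with adjusted p up to 0.151. The other 3 CBX members were not called. CBX8, which lies 4148 bases from CBX2 on chromosome 17, read 1.06 and 1.66 FPKM in DMSO and 0.673 and 0.647 FPKM in IWP2 (log2 fold change -0.50, limma adjusted p = 0.205). CBX7, the main CBX protein of mouse embryonic stem cells, read 1.80 and 1.07 FPKM in DMSO and 2.30 and 1.82 FPKM in IWP2 (log2 fold change 0.34, limma adjusted p = 0.367). CBX6 had a log2 fold change of -0.07. Among these 4, CBX2 made up 65.0% and 63.0% of the summed level in DMSO and 54.1% and 52.3% in IWP2.

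KDM2B brings a variant PRC1 with PCGF1 to CpG islands through its CXXC zinc finger. KDM2B rose from 26.3 and 28.0 FPKM in DMSO to 41.3 and 38.8 FPKM in IWP2, 1.48-fold (log2 fold change 0.54, SE 0.09, limma adjusted p = 0.0183). The call was lost in 5 of 15 alternative fits, with adjusted p up to 0.15. Its partner PCGF1 read 7.20 and 6.42 FPKM in DMSO and 5.28 and 5.76 FPKM in IWP2, and was not called (log2 fold change -0.26, limma adjusted p = 0.245). KDM2B overlaps RNF34 at its 3′ end on the opposite strand, and RNF34 lay at 33.6 and 30.4 FPKM in DMSO and 30.2 and 24.6 FPKM in IWP2 (log2 fold change -0.22, limma adjusted p = 0.32).

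**Figure D3:**
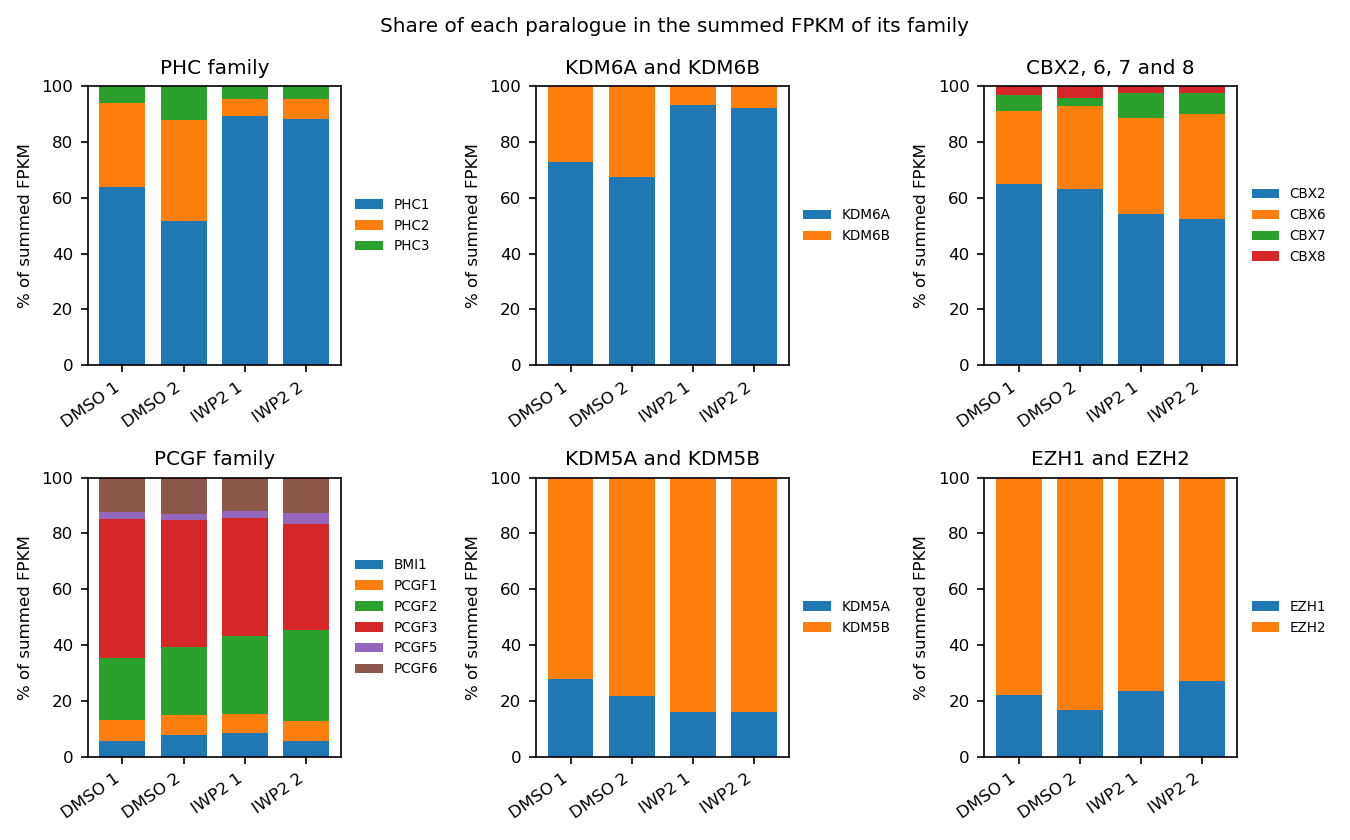
Stacked bars giving each paralogue as a percent of the summed FPKM of the members of its family in each of the 4 samples. The sums are over PHC1 to PHC3, KDM6A and KDM6B, 4 CBX genes, 6 PCGF genes, KDM5A and KDM5B, and EZH1 and EZH2. PHC1 goes from 63.7% and 51.8% in DMSO to 89.4% and 88.0% in IWP2, and KDM6B from 27.3% and 32.7% to 6.82% and 7.87%.

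Of the 6 H3K4 methyltransferases limma called 0, against 15.2% of all genes, and none reached an unadjusted p under 0.05. So few genes cannot be told apart from that background, and their intervals leave room for changes in either direction. Log2 fold changes ran from -0.22 for KMT2D and SETD1B to 0.30 for KMT2C, with KMT2A at 0.02, KMT2B at -0.08 and SETD1A at 0.15. KMT2D, an enhancer methyltransferase and the most abundant, read 24.8 and 23.5 FPKM in DMSO and 22.7 and 18.6 FPKM in IWP2. The widest interval was that of KMT2A, from -0.48 to 0.52, so a change of KMT2A within that range, in either direction, is not excluded. KMT2D made up 33.3% and 31.7% of the summed level of the 6 in DMSO and 29.1% and 28.1% in IWP2.

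Of the 3 subunits that all these complexes share, ASH2L was called. ASH2L read 19.7 and 20.2 FPKM in DMSO and 12.8 and 14.7 FPKM in IWP2, 1.45-fold lower (log2 fold change -0.51, SE 0.11, limma adjusted p = 0.0354). The call was lost in 9 of 15 alternative fits: under equal medians (adjusted p = 0.0558), quantile normalization (0.0555), a variance fit without a trend (0.0556), no filter (0.106) and crossed pairing (0.0668), and without any 1 of the 4 samples (up to 0.205). WDR5, the most abundant of the 3, read 31.77 and 35.03 FPKM in DMSO and 27.9 and 30.1 FPKM in IWP2 (log2 fold change -0.20, limma adjusted p = 0.251). RBBP5 had a log2 fold change of 0.07.

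The members held 2 H3K4 demethylases, KDM5A and KDM5B. KDM5A read 12.2 and 9.47 FPKM in DMSO and 6.92 and 6.75 FPKM in IWP2. Its log2 fold change of -0.59 (SE 0.15) missed the threshold (limma adjusted p = 0.0584). It passed in 2 of 15 alternative fits, with a robust variance fit (adjusted p = 0.0493) and with FPKM rescaled to the same total (adjusted p = 0.036), and the adjusted p ranged up to 0.279 in the others. CCDC77, which overlaps KDM5A on the opposite strand, read 10.7 and 10.8 FPKM in DMSO and 11.5 and 10.4 FPKM in IWP2, with a log2 fold change of 0.02. KDM5B, the more abundant of these 2, read 31.5 and 34.2 FPKM in DMSO and 35.9 and 35.2 FPKM in IWP2. The log2 fold change of KDM5B was 0.11. KDM5C, a KDM5 gene outside the members, read 37.3 and 32.2 FPKM in DMSO and 28.5 and 25.6 FPKM in IWP2. KDM5C was not called (log2 fold change -0.35, limma adjusted p = 0.112). KDM5A made up 27.9% and 21.7% of the summed KDM5A and KDM5B level in DMSO and 16.1% in each IWP2 sample. That sum leaves out KDM5C, so it is not the whole KDM5 family.

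Other genes of these pathways were read from fixed lists, whose counts stand beside the 15.2% of all genes called. Of 24 further Polycomb genes tested, 0 rose and 2 fell. SCMH1, a Scm homologue of PRC1, fell from 6.25 and 9.19 FPKM to 3.44 and 3.25 FPKM (log2 fold change -0.98, limma adjusted p = 0.0297). ASXL2, a cofactor of the H2A deubiquitinase BAP1, fell from 10.4 and 9.38 FPKM to 5.86 and 5.55 FPKM (log2 fold change -0.70, limma adjusted p = 0.0193). YAF2, a subunit of variant PRC1, read 12.3 and 19.9 FPKM in DMSO and 3.50 and 8.06 FPKM in IWP2, and its log2 fold change of -1.39 came with an SE of 0.39 and was not called (limma adjusted p = 0.0752). EPOP, a PRC2 cofactor, was listed at 0 in all 4 samples. HDAC2 was the most abundant gene of that list. The median log2 fold change of the 24 was -0.20, against -0.02 for all genes tested.

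Of 13 further Trithorax and COMPASS genes, PSIP1 alone was called. PSIP1, a chromatin-tethering partner of KMT2A and MEN1, rose from 86.8 and 89.0 FPKM to 118.6 and 113.8 FPKM (log2 fold change 0.40, limma adjusted p = 0.0281). DPY30, the remaining shared subunit of these complexes, read 87.0 and 91.7 FPKM in DMSO and 98.3 and 102.8 FPKM in IWP2 and was not called (limma adjusted p = 0.238). Of 23 genes of the BAF remodelling complex tested, a Trithorax-related machine, 1 rose and 2 fell. SMARCA2, the BRM ATPase, rose from 3.12 and 2.02 FPKM to 13.7 and 12.1 FPKM (log2 fold change 1.98, SE 0.19, limma adjusted p = 0.00382). SMARCA4, the BRG1 ATPase and the most abundant gene of the list, read 115.8 and 110.3 FPKM in DMSO and 95.8 and 91.0 FPKM in IWP2 and was not called (limma adjusted p = 0.0862). BCL7A and BCL7C, accessory subunits, had log2 fold changes of -0.76 and -0.72 (limma adjusted p = 0.0482 and 0.0176).

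Methyltransferases for other histone lysines and cell cycle genes served for comparison. Limma called 0 of 9 H3K9 and H3K36 methyltransferases, against 15.2% of all genes, with 1 at an unadjusted p under 0.05. The log2 fold changes of these 9 lay between -0.21 and 0.28. EHMT1 was the most abundant of them. Of 19 proliferation genes tested, 1 was called, the replication helicase subunit MCM3, with a log2 fold change of 0.39 (limma adjusted p = 0.0295). The list's summed level was 1397 and 1504 FPKM in DMSO and 1466 and 1493 FPKM in IWP2. By mean over the 4 samples MCM4 was its most abundant gene, though CCNB1 was above it in DMSO 2 (167.7 against 160.0 FPKM). The list had a median log2 fold change of 0.02, and EZH2, itself linked to proliferation, had one of -0.03.

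Developmental genes known from other work to carry the PRC2 mark in embryonic stem cells were also read, and no chromatin mark was measured here. Of 26 such genes, 18 passed the filter, 13 were lower with IWP2 and 0 were higher. GATA6, a mesendoderm factor, fell from 118.6 and 134.5 FPKM to 3.52 and 3.01 FPKM (log2 fold change -4.90, limma adjusted p = 0.000186). LHX1, an anterior streak homeobox gene, fell from 31.1 and 47.3 FPKM to 0.09998 and 0.4516 FPKM (log2 fold change -4.96, limma adjusted p = 0.000635). MSX1 had a log2 fold change of -3.99 (limma adjusted p = 0.000301). HAND1 was the most abundant, at 233.7 and 322.3 FPKM in DMSO and 100.5 and 118.9 FPKM in IWP2 (log2 fold change -1.32, limma adjusted p = 0.00981). Of the 8 that did not pass the filter, 7 were under 1 FPKM in all 4 samples, among them SOX1 and OLIG2. The median log2 fold change of the 18 was -2.24, whereas no chromatin regulator of the 37 went beyond -1.69 or 1.39.

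**Figure D4:**
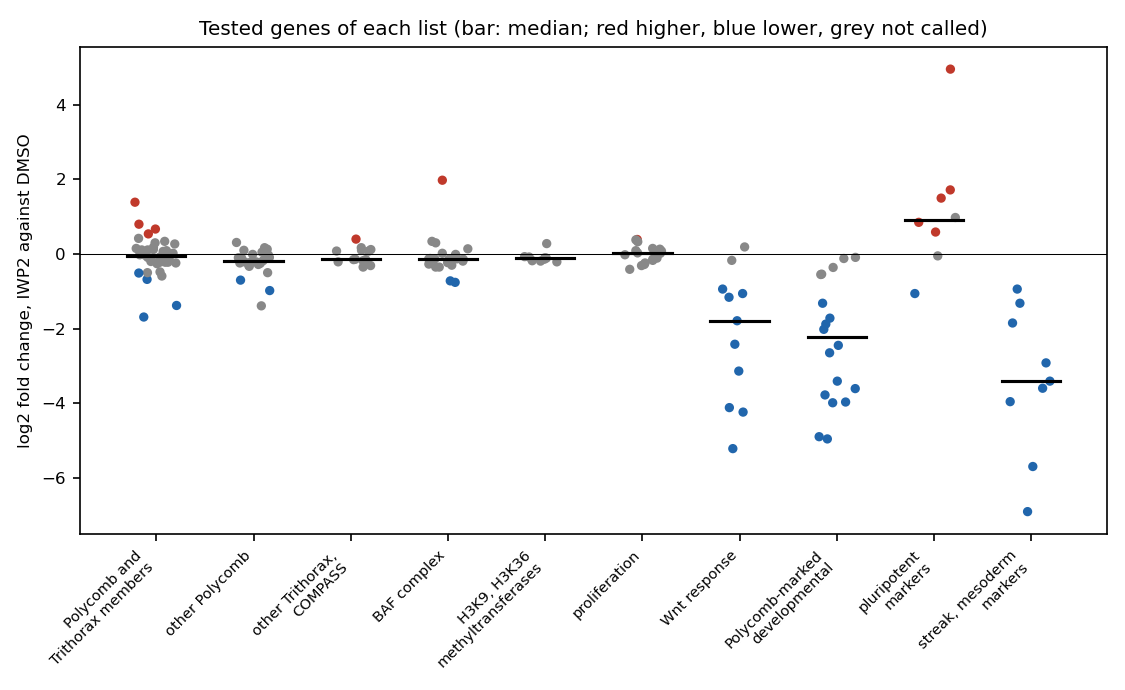
Log2 fold change of every tested gene in 10 lists, IWP2 against DMSO, on the log2(FPKM + 1) scale, with a bar at each median, red for genes called higher, blue for lower and grey for not called. The 37 members have a median of -0.06, while the Wnt response, Polycomb-marked and mesoderm lists lie at -1.79, -2.24 and -3.41 and the pluripotent markers at 0.92.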

How the data were processed

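Expression was measured in 4 RNA libraries from day 2 cultures, 2 per group. The authors deposited a single table, 1 column per sample, whose header named no unit. The deposited values were taken as FPKM, an inference from their scale: they are not whole, and their sums differ between samples. The submitters' processing notes list BWA, Bowtie, RSEM and hg19 without roles or versions. The gene positions in the table are those of GRCh38, since 55629 of 55723 shared IDs matched GENCODE release 29, with starts counted from 0. The 2 columns headed as without IWP2 were assigned to the DMSO group, not to single samples, and DMSO 1 and 2 are the numbers in those headings. Groups were compared with limma 3.58.1 (R 4.3.3), with an intensity trend, on log2(FPKM + 1) over the 14022 genes with a mean of at least 1 FPKM, so fold changes of low genes are understated. Calls used a Benjamini-Hochberg adjusted p under 0.05 over all these genes. The procedure was tested on simulated data. Every member was described. From the further lists, the most abundant gene by mean over the 4 samples and up to 3 called genes of largest change were named. Any marker gene could be given, and YAF2, EPOP, DPY30, KDM5C, SOX1 and OLIG2 were added after their values were seen. The members and lists were chosen with earlier results of these data known. Depth is unknown, so no counting interval is given. Alternatives covered pseudocount, filter, scaling, variance model, pairing and leaving out each sample.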

Additional observations from a re-analysis of the deposited data

How the results depend on the processing

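The 8 called members kept their direction in all 120 refits, 15 for each gene, and 9 other members changed sign in at least 1. In the main fit those 9 had log2 fold changes between -0.17 and 0.09. Single refits gave larger values for some of them, with PHC3 from -0.50 to 0.31. Without a filter on low values, 118 genes were called higher and 263 lower, with 0 members higher and 1 lower, KDM6B, and 13 members at an unadjusted p under 0.05. That fit tests 28917 genes. Leaving out each sample in turn gave 58 to 657 genes called higher and 180 to 718 lower, and 0 to 2 members higher and 0 to 3 lower, with the fewest when an IWP2 sample was left out. The lone sample is then assumed to vary like the other group, and the cause of the loss was not tested. The median of the members ranged from -0.12 to 0.02 over these fits, and was 0.01 with quantile normalization or equal medians. With the replicate number as a block, 862 genes were called higher and 1064 lower, and PHF19 was lost (adjusted p = 0.054) while PCGF3 was gained (adjusted p = 0.0386). The numbers, which for DMSO come from the column headings, share no stated origin, and the deviations of same-numbered samples correlated at 0.15 over genes. Crossed pairing, chosen after seeing the data, gave 724 and 908 genes and lost ASH2L (adjusted p = 0.0668). Adding 0.1 FPKM to each paralogue moved shares in IWP2 beyond their SD for CBX8 (2.95%), PHC3 (4.83%), KDM5A (16.3%) and KDM5B (83.7%).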
